A study of Saccharomyces cerevisiae with 6 samples.

Results

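The data were whole-genome sequencing counts from a pair of S-phase libraries of budding yeast, the orc2ΔN200 library and the library labelled orc2-I194E, both taken 30 min after release from G1 arrest. The orc2ΔN200 label stands for Orc2 without its first 200 residues, and orc2-I194E for a full-length protein with a single residue changed. Bins of 1 kb present in both libraries were joined, and mitochondrial bins and the ribosomal DNA stretch of chromosome XII were left out. This gave 11480 bins out of 11579 nuclear bins with a count anywhere in the series. Of these, 11325 bins (98.6%) held at least 50 counts in both libraries and were used, and 155 did not.

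The series held 6 libraries in all, 1 for each of 3 strain labels at 0 min in G1 phase and at 30 min in S phase, so every group was a single library. The other groups were orc2ΔN200 in G1, the label orc2-I194E in G1, and the label WT in S and in G1. All were of the W303-1a background, a common laboratory strain, and the protocol given for every sample depletes a protein named orc2-1 during a move out of YPG into YPD medium. The study used such counts to follow how efficiently origins fire. Nothing states whether libraries came from separate cultures or clones. The cells went through a pheromone arrest, a nocodazole arrest and a second pheromone arrest before release, and azide stopped DNA elongation at harvest.

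Orc2 is part of the origin recognition complex (ORC). ORC marks the places where DNA copying can begin, and during G1 it helps to load the MCM helicase onto them. Origins fire at different times in S phase, so after a short release the DNA around early origins holds more copies than DNA far from any active origin. In budding yeast, origins near centromeres tend to fire early and those near chromosome ends late. A count per bin is therefore a readout of how far copying has reached in the average cell, mixed with how well each stretch of sequence is recovered.

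The value used throughout was the share of a bin, its count divided by the sum over all used bins, which was 2959121 in orc2ΔN200 and 2890013 in orc2-I194E. The comparison was the log2 ratio of the orc2ΔN200 share over the orc2-I194E share, with no G1 library in the denominator. A value of 0 means the same share in both. A used bin held a median of 261 counts in orc2ΔN200 and 255 in orc2-I194E. Values were averaged over a centred window of 21 kb, since at this depth a single bin has a counting error (SD) of 0.130 on the log2 scale and a 21-kb mean one of 0.0283. With 1 library a side there was no test, and no p-value could be had. Intervals are 95% exact intervals for the ratio of summed counts and cover counting error only. The G1 libraries of the same strain labels, in which no replication is under way, were compared in the same way as a background.

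The labels were checked at ORC2 (YBR060C, chromosome II, 360652 to 362514, sacCer3), against the mean of the bins within 20 kb on either side. In the 1-kb bin that holds the first codons, orc2ΔN200 stood at 0.932 (0.812 to 1.06) times its flanks in S and at 0.909 (0.798 to 1.03) in G1. In the neighbouring bin, which lies wholly within the gene and is called the middle bin below, it stood at 1.85 in S and 1.69 in G1. The orc2ΔN200 libraries thus stood above their flanks over later codons of the gene and near them over the first ones.

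The label orc2-I194E was less steady. Its first-codon bin stood at 1.98 (1.80 to 2.17) in S and at 1.39 (1.25 to 1.53) in G1, and its middle bin at 2.67 in S and 1.76 in G1. The label WT ran the other way, with a middle bin of 1.81 in S and 2.64 in G1. LEU2 (YCL018W, chromosome III), a leucine synthesis gene used as a selection marker, showed the same crossing. Its first bin stood at 2.46 in S and 1.65 in G1 for orc2-I194E, and at 1.77 in S and 2.60 in G1 for WT. The changed residue itself cannot be seen in bin counts. An exchange of labels between WT and orc2-I194E at 1 of the times was not tested further and cannot be told apart from other causes here. The name orc2-I194E below therefore means the library so labelled, and the main counts are also given with the S library labelled WT in its place. Likewise, own G1 means the G1 library of the same label, and the G1 pair is a pair by label. With an exchange at 1 of the times, own G1 would be of another strain for orc2-I194E and for WT. Values over a G1 library of another label are not given.

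Across the genome the orc2ΔN200 and orc2-I194E S-phase libraries were close to each other. The SD of the 21-kb log2 ratio over 11287 bins was 0.0490. Counting error alone gives an SD of 0.0283, or 33.3% of the variance, and subtracting the variances leaves an SD of 0.0400. The G1 pair had an SD of 0.0410, with 0.0276 for counting error and 0.0303 left in the same way. The S-phase pair thus differed somewhat more than the same strain labels did before replication, though with 1 pair at each time this difference has no replicate check. Both S-phase libraries stood much farther from the S library labelled WT, with SDs of 0.124 for orc2ΔN200 over WT and 0.142 for orc2-I194E over WT.

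Counted by size, 534 of 11287 bins (4.73%) had a 21-kb value of at least 0.1 in either direction, a share 1.07 times as high or more. In the G1 pair the figure was 1.75%, and against the S library labelled WT it was 45.3% for orc2ΔN200 and 50.3% for orc2-I194E. By direction, 224 bins (1.98%) were higher in orc2ΔN200 and 310 (2.75%) in orc2-I194E, against 1.01% and 0.735% for the same directions in the G1 pair. With shares of the whole library, mitochondrial and ribosomal DNA included, the split turned round, with 356 bins higher in orc2ΔN200 and 217 in orc2-I194E, so which library has more such bins depends on the scaling. The 21-kb values ran between -0.19 and 0.20 in the S-phase pair, and 71.6% of them lay within 0.05 of 0. In each direction, the S-phase pair had more bins past the limit than the G1 pair and far fewer than either comparison with WT.

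**Figure D1:**
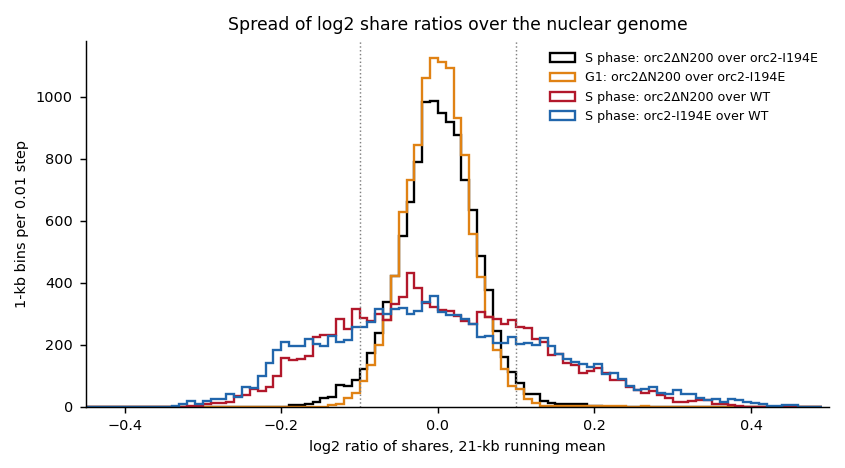
Number of 1-kb bins (y axis) at each 21-kb log2 ratio of shares (x axis, steps of 0.01) for orc2ΔN200 over orc2-I194E in S phase (black) and in G1 (orange), and for orc2ΔN200 (red) and orc2-I194E (blue) over the S library labelled WT. Dotted lines mark 0.1 and -0.1: 4.73% of black bins and 1.75% of orange bins lie past them, against 45.3% of red and 50.3% of blue.

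The share profiles of the orc2ΔN200 and orc2-I194E S-phase libraries had a Pearson correlation of 0.935 over 11287 bins (21-kb log2 share, a description only, as neighbouring bins overlap and all bins share sequence composition and library processing). The G1 pair, which shares the same sequence effects, had 0.852. Each S library followed its own G1 library less closely, at 0.526 for orc2ΔN200 and 0.404 for orc2-I194E. With each S share divided by that of the G1 library of the same label, so that no library was used on both sides, the correlation was 0.883. The libraries thus had in common a relief that G1 did not show. With the S library labelled WT, the share profiles correlated at 0.668 for orc2ΔN200 and 0.569 for orc2-I194E. A correlation between S-phase share profiles was thus not particular to the mutant pair, though it was higher there.

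Hill tops were less well matched than levels. Local maxima of the 21-kb share with a prominence of at least 0.1 numbered 152 in orc2ΔN200 and 155 in orc2-I194E, and 90 of them (59.2% and 58.1%) lay within 5 kb of a hill of the other library. The G1 pair had 159 and 181 hills, of which 62.9% and 55.2% matched, so these small maxima are about as common and about as well matched without replication. At a prominence of 0.2, 40 hills matched, 56.3% of those in orc2ΔN200 and 55.6% of those in orc2-I194E, against 42.9% and 44.1% in the G1 pair. With each S share over its own G1 share there were 57 hills in orc2ΔN200 and 60 in orc2-I194E, and 15 matched, 26.3% and 25% of them. The positions of hill tops thus matched for a minority of hills once G1 was divided out.

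The highest hills of the S-phase share profiles included 5 on chromosome VI among the 10 described here. In orc2ΔN200 the highest 5 lay at RUF22 (VI), YMR315W-A (XIII), AGP3 (VI), SNR3 (X) and FIT3 (XV). In orc2-I194E they lay at ATG18 (VI), AQY3 (VI), YNCL0009C (XII), FAR7 (VI) and KIN3 (I). RUF22 and ATG18 lay within 5 kb of each other, as did AGP3 and AQY3. By the 5-kb rule each of these pairs is a hill shared by the libraries, so the 5 on chromosome VI are not all separate places. AGP3 encodes an amino acid permease, AQY3 an aquaglyceroporin, ATG18 a protein of autophagy and FIT3 a cell wall protein of iron uptake.

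At RUF22 the log2 share over the genome mean was 0.51 in orc2ΔN200 and 0.43 in orc2-I194E, and at the nearby ATG18 it was 0.50 and 0.47. At AQY3, near the left end of the same chromosome, the levels were 0.39 in orc2ΔN200 and 0.47 in orc2-I194E. At YMR315W-A they were 0.41 in orc2ΔN200 and 0.32 in orc2-I194E. Each of these 10 hills of one library was also a high place in the other, and the log2 ratio between the libraries at the 10 lay between -0.082 and 0.091.

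Relative to their own G1 libraries, the leading hills stood above G1 in both libraries, but their heights differed. The 10 leading S over G1 hills of orc2ΔN200 had differences, orc2ΔN200 minus orc2-I194E, between -0.040 and 0.095, and 7 of them were higher in orc2ΔN200. For the 10 of orc2-I194E the differences lay between -0.23 and -0.028, all 10 were higher in orc2-I194E, and 4 differed by 0.1 or more in size. Each set was chosen by the height in its own library, which favours that library. At VMS1 on chromosome IV, a gene of mitochondrial and ribosomal quality control, S over G1 was 0.32 in orc2ΔN200 and 0.23 in orc2-I194E, against 0.17 in the pair labelled WT. At SFK1 on chromosome XI it was 0.29 in orc2ΔN200 and 0.28 in orc2-I194E, against 0.062 labelled WT. The libraries stood farther apart at the hills of orc2-I194E given here. At PDA1 on chromosome V, a subunit of pyruvate dehydrogenase, S over G1 was 0.27 in orc2ΔN200 and 0.42 in orc2-I194E, against 0.11 labelled WT. At ATG23 on chromosome XII it was 0.089 in orc2ΔN200 and 0.32 in orc2-I194E, against 0.029 labelled WT. The G1 log2 ratio of orc2ΔN200 over orc2-I194E, part of these gaps, was 0.066 at PDA1, 0.068 at ATG23, -0.040 at VMS1 and -0.060 at SFK1. The S-phase ratio was -0.080, -0.16, 0.055 and -0.048 in the same order. VMS1, SFK1 and PDA1 were picked after their values were seen.

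Stretches where the libraries parted were defined as runs of at least 10 consecutive bins with a 21-kb log2 ratio of 0.1 or more in size. There were 17 on 13 of the 16 chromosomes, 7 higher in orc2ΔN200 (140 kb in all) and 10 higher in orc2-I194E (225 kb), together 3.22% of the used bins. With shares of the whole library there were 12 and 10. The G1 pair had 4 by the same rule, all higher in orc2ΔN200 and none overlapping an S-phase stretch. At their extreme bins the S-phase ratio was 0.064 and 0.027 on chromosome I, 0.10 on III and -0.067 on XI. On chromosome III the S-phase pair thus also passed the limit in the same direction, but in runs shorter than 10 kb. Another 55 runs past the limit in the S-phase pair were too short, 9 kb at most. Just outside the rule lay a 7-kb run at FLO9 on chromosome I, with an extreme of 0.15, and just inside it the 12-kb stretch on chromosome XI. As the stretches were picked by this ratio, its values over them are a description only.

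**Figure D2:**
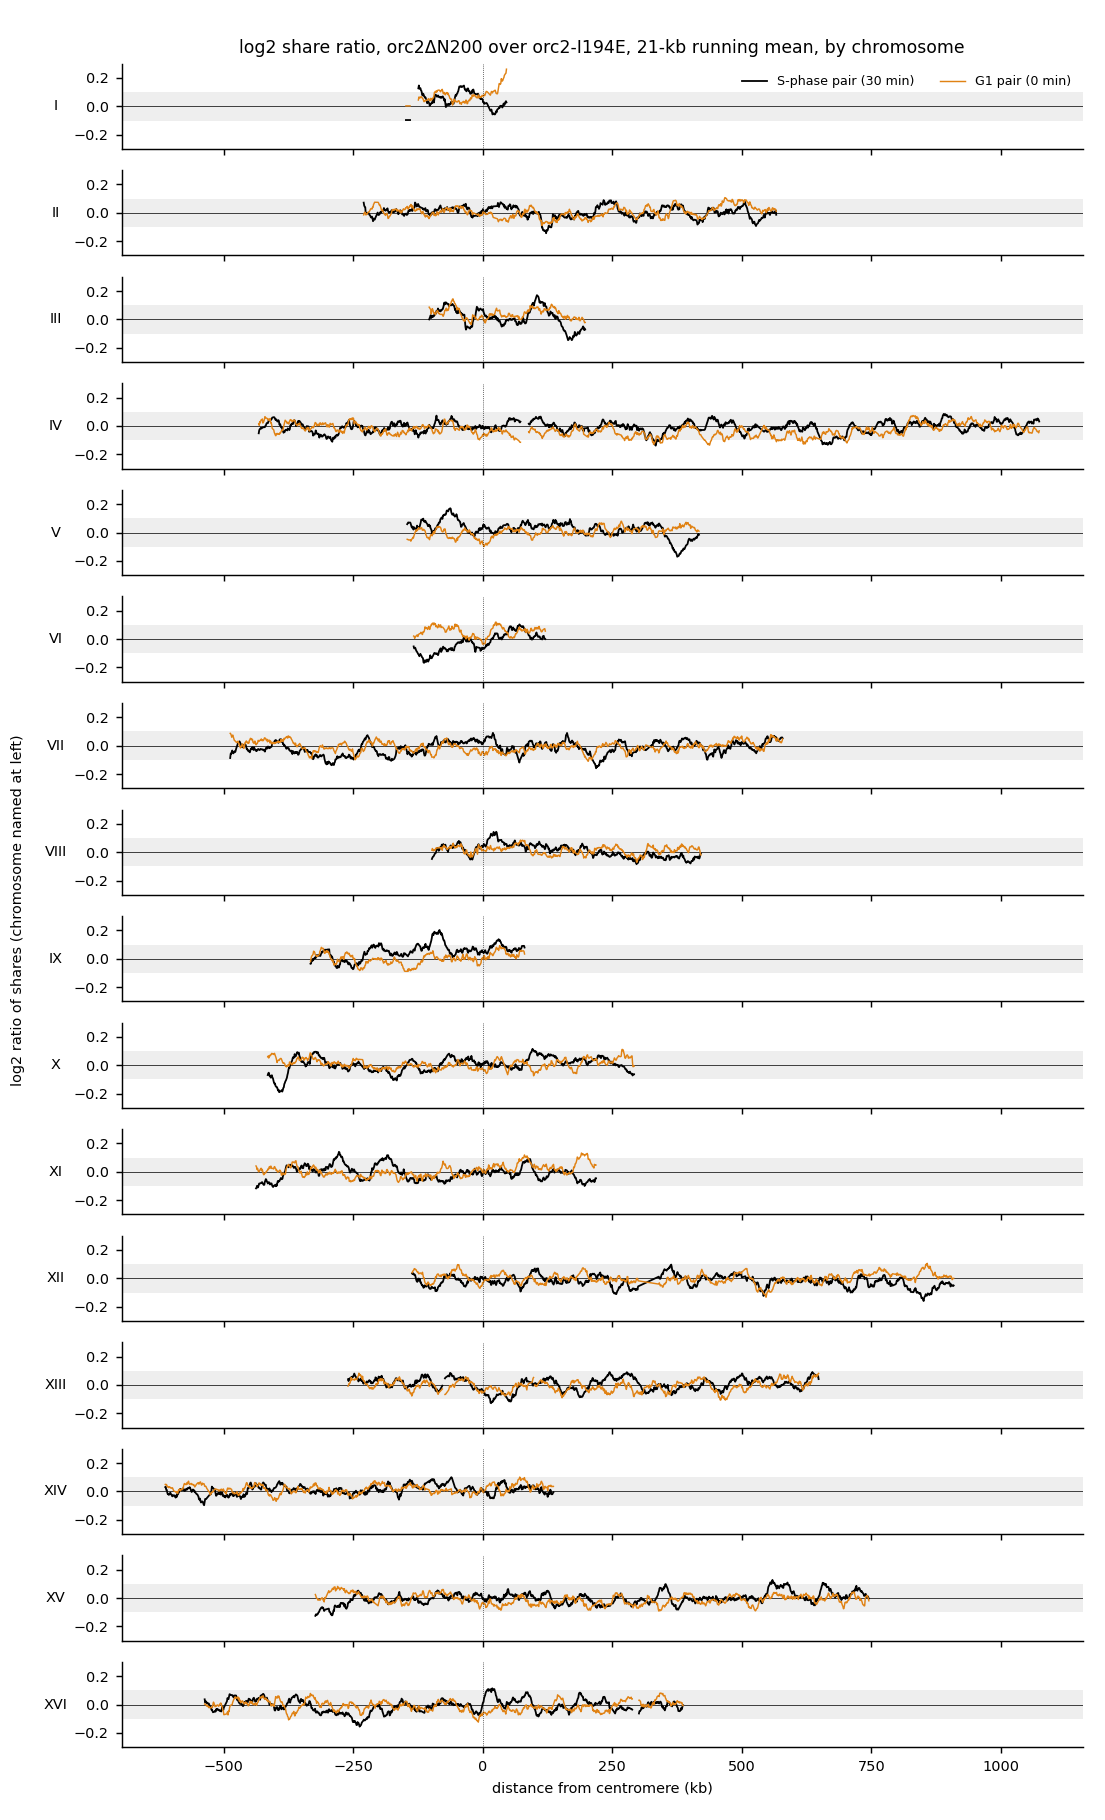
The 21-kb log2 ratio of shares, orc2ΔN200 over orc2-I194E (y axis), against distance from the centromere in kb (x axis, dotted line at 0) on the 16 chromosomes, for the S-phase pair (black) and the G1 pair (orange). The grey band spans -0.1 to 0.1: most of the black trace lies inside it and leaves it at 17 stretches of 10 kb or more.

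Of the 7 stretches higher in orc2ΔN200, the one with the largest extreme 21-kb value (0.20) lay at 255001 to 283000 on chromosome IX. It held 7430 counts in orc2ΔN200 and 6450 in orc2-I194E, a log2 ratio of 0.17 (0.12 to 0.22). The G1 libraries did not part there, with 7430 counts and 7292 (0.014, -0.033 to 0.061). Its extreme was at PIG2, with 17 genes inside, among them GPP1 (glycerol synthesis), MET30 (an F-box protein that targets proteins for degradation), NEO1 (a lipid flippase) and NOT3 (a subunit of the CCR4-NOT complex). Over its own G1 level, orc2ΔN200 stood at 0.046 (-0.00092 to 0.092) and orc2-I194E at -0.11 (-0.16 to -0.062), with the label WT at -0.0074.

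The stretch on chromosome V at 75001 to 103000 had its extreme at MCM3, the gene of an MCM helicase subunit. It held 7971 counts in orc2ΔN200 and 7102 in orc2-I194E, a log2 ratio of 0.13 (0.086 to 0.18), against -0.047 (-0.092 to -0.0011) in the G1 pair. The label WT stood there at 0.27 over its own G1 level. Over theirs, orc2ΔN200 stood at 0.099 (0.053 to 0.14) and orc2-I194E at -0.080 (-0.13 to -0.034). RAD23 (nucleotide excision repair), CYC7 (a cytochrome c), HYP2 (a translation factor) and VMA3 (a subunit of the vacuolar proton pump) lie in the same stretch.

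A like order was seen at 3 further stretches. On chromosome III at 214001 to 232000, with RSC6 (a chromatin remodelling subunit), THR4 (threonine synthesis), PWP2 (ribosome assembly) and HCM1 (a forkhead transcription factor), the orc2ΔN200 library had 4826 counts and the orc2-I194E library 4241. On chromosome I at 104001 to 127000, with FUN30 (a chromatin remodeller), CCR4 (a deadenylase), PMT2 (protein mannosylation) and TPD3 (a phosphatase subunit), there were 6392 and 5725. On chromosome VIII at 119001 to 134000, which begins 13.4 kb from the centromere and holds ARD1 (a protein acetyltransferase), ERG11 (ergosterol synthesis), SOD2 (a superoxide dismutase) and RPL27A (a ribosomal protein), there were 3830 and 3458.

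The log2 ratios at these 3 stretches were 0.15 (chromosome III), 0.12 (I) and 0.11 (VIII). At all 3 the label WT stood above its own G1 level, by 0.11, 0.15 and 0.22 in the same order. All 3 shares lay below those of the S library labelled WT in both mutants. On the log2 scale orc2ΔN200 over WT was -0.10, -0.092 and -0.21, and orc2-I194E over WT was -0.26, -0.22 and -0.32, in the same order. On chromosome III the G1 pair also parted in the same direction, by 0.096 (0.037 to 0.15), so that the difference of S over G1 was 0.056. Its part in the result was not tested.

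The remaining 2 stretches higher in orc2ΔN200 were at 157001 to 169000 on chromosome XI and at 377001 to 393000 on chromosome IX. The first, with GPM1 (phosphoglycerate mutase), RPS27A (a ribosomal protein) and DBR1 (the lariat debranching enzyme), held 3240 counts in orc2ΔN200 and 2831 in orc2-I194E. The second, with MET28 and YAP5 (transcription factors) and STS1 (proteasome localization), held 4007 and 3521. In both, orc2ΔN200 lay at the level of WT, by 0.014 and 0.0066, while orc2-I194E lay below it by -0.15 and -0.15. On chromosome IX the G1 pair parted by 0.10 (0.036 to 0.16), and its part in the result was not tested.

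Over all 7, the ratio of orc2ΔN200 to orc2-I194E ran between 1.08 and 1.13. The share in orc2-I194E was below that of the S library labelled WT at 7 of 7 with an interval that excludes equality. For orc2ΔN200 the interval lay below WT at 4 stretches and above it at 1. These comparisons share the WT library, and orc2-I194E was low by the choice of stretches.

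Stretches higher in orc2-I194E were, in 5 of 10 cases, within 60 kb of a chromosome end, taken as the last counted bin, against 1 of 7 of those higher in orc2ΔN200. That zone, set after the stretches were seen, held 13.9% of the used bins. A stretch was counted by its nearer edge alone, so a stretch lying partly outside the zone also counted. The share of single bins is thus not a like background for these counts. With the end of the last annotated gene as the chromosome end, the counts were 4 of 10 and 1 of 7, because the stretch on chromosome XII then lay 60.9 kb away. By its extreme 21-kb value (-0.19) the first of the 10 was on chromosome X at 32001 to 57000, around LAA1 (a clathrin adaptor accessory protein). It held 7051 counts in orc2ΔN200 and 7734 in orc2-I194E, a log2 ratio of -0.17 (-0.21 to -0.12), while the G1 pair differed the other way by 0.056 (0.0070 to 0.10). OPT1 (an oligopeptide transporter), PEX2 (peroxisome biogenesis), NUC1 (a mitochondrial nuclease) and PRP21 (splicing) lie inside. S over G1 was 0.076 (0.028 to 0.12) in orc2ΔN200 and 0.30 (0.25 to 0.35) in orc2-I194E, against -0.030 labelled WT.

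On chromosome V at 518001 to 543000, the stretch around RAD3, a helicase of transcription and nucleotide excision repair, held 7659 counts in orc2ΔN200 and 8281 in orc2-I194E. Its log2 ratio was -0.15 (-0.19 to -0.10). BRR2 (a spliceosomal helicase), RAD24 (a DNA damage checkpoint protein), GRX4 (a glutaredoxin) and RPH1 (a histone demethylase) are neighbours in it. S over G1 was 0.12 in orc2ΔN200 and 0.31 in orc2-I194E, against -0.044 labelled WT. This chromosome thus held a stretch of each kind, one higher in orc2ΔN200 on the left arm and one higher in orc2-I194E near the right end.

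The longest stretch, of 32 kb, lay on chromosome VI at 23001 to 55000, with its extreme at ALR2 (a magnesium transporter gene), and included ACT1 (actin), SEC53 (phosphomannomutase), EMP47 (vesicle transport) and FET5 (a multicopper oxidase). It held 9599 counts in orc2ΔN200 and 10219 in orc2-I194E, a log2 ratio of -0.12 (-0.16 to -0.084). Both mutants were high there. S over G1 was 0.19 (0.15 to 0.23) in orc2ΔN200 and 0.38 (0.34 to 0.42) in orc2-I194E, against -0.023 labelled WT. The G1 pair parted the other way, by 0.068 (0.024 to 0.11), which raises the difference of S over G1 to -0.19.

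Further stretches of this kind lay at chromosome XII, 991001 to 1017000, and chromosome III, 276001 to 292000. The first holds ATG23 (autophagy), SEN1 (an RNA helicase), CNA1 (calcineurin) and CAR2 (arginine breakdown), with 7095 counts in orc2ΔN200 and 7512 in orc2-I194E. The second holds MSH3 (mismatch repair), CDC39 (the scaffold of CCR4-NOT) and CDC50 (a flippase subunit), with 4719 and 5143. Summed over the whole stretch, S over G1 at ATG23 was 0.11 in orc2ΔN200 and 0.29 in orc2-I194E, against 0.039 labelled WT. The values given above for the ATG23 hill are 21-kb means instead. Over the MSH3 stretch S over G1 was 0.13 in orc2ΔN200 and 0.28 in orc2-I194E, against -0.13 labelled WT. At LAA1, RAD3, ALR2, ATG23 and MSH3 alike, both mutants stood above the S library labelled WT. That orc2-I194E stood above it by more follows from the choice of stretches, as both comparisons share the WT library.

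Away from ends the differences were on lower ground. At 712001 to 730000 on chromosome VII, with SPT6 (a histone chaperone of transcription), DAM1 (kinetochore), NUP57 (nuclear pore) and RPS23A (a ribosomal protein), there were 3877 counts in orc2ΔN200 and 4153 in orc2-I194E. Here S over G1 was -0.081 in orc2ΔN200 and 0.041 in orc2-I194E, against -0.022 labelled WT. At 304001 to 331000 on chromosome XVI, with HHO1 (the linker histone), TAF14 (a transcription factor subunit), TBF1 (a telomere repeat binding protein) and VPS30 (autophagy and vacuolar sorting), there were 7230 counts and 7702. S over G1 there was 0.019 in orc2ΔN200 and 0.10 in orc2-I194E, against -0.010 labelled WT. The others of the 10, on chromosome VII at 192001 to 212000 and on chromosome IV at 1102001 to 1125000, had log2 ratios of -0.12 each.

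The stretch on chromosome II at 352001 to 365000 contained ORC2, the gene altered in these strains. It held 3307 counts in orc2ΔN200 and 3865 in orc2-I194E (-0.26, -0.33 to -0.19). The G1 pair parted there in the same direction, by -0.099 (-0.16 to -0.035). Of the single bins, that with the first codons of ORC2 had 218 counts in orc2ΔN200 and 457 in orc2-I194E, a log2 ratio of -1.10. In the G1 pair that bin was at -0.65. Without the 3 ORC2 bins, 2302 counts against 2359 were left, a log2 ratio of -0.069 (-0.15 to 0.014), and 0 bins of the stretch passed the limit. Leaving out the bins of ORC2 and LEU2 gave 9 stretches higher in orc2-I194E and 7 higher in orc2ΔN200.

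**Figure D3:**
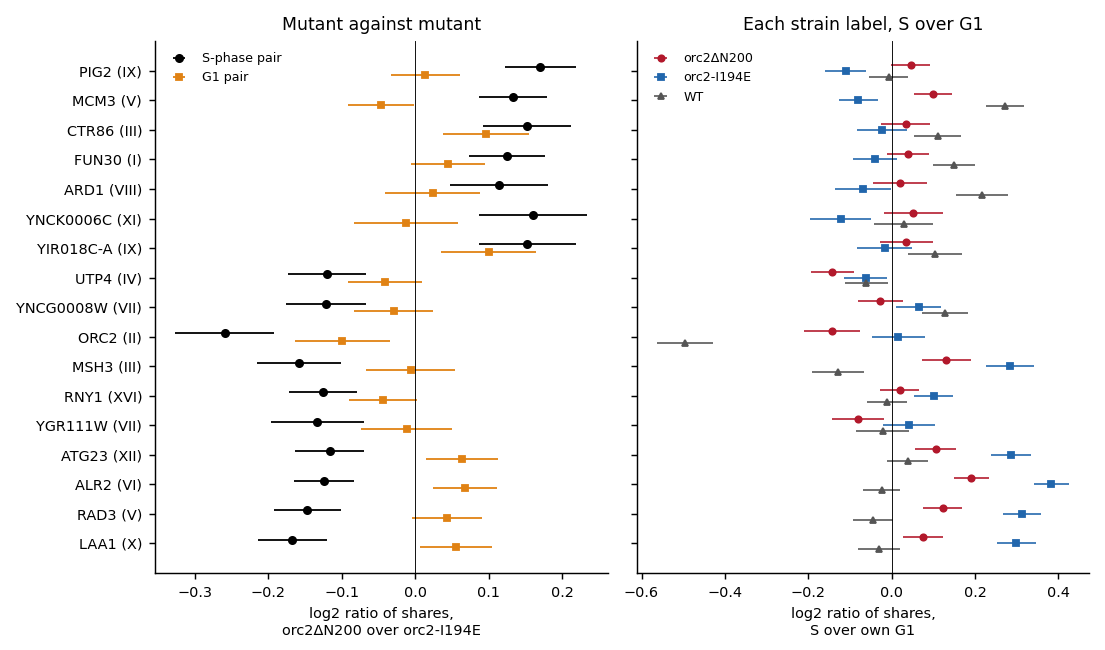
The 17 stretches, named by the gene at their extreme bin and the chromosome, with log2 ratios of summed shares (x axes) and 95% intervals for counting error. Left, orc2ΔN200 over orc2-I194E in the S-phase pair (black) and the G1 pair (orange); right, S over own G1 for orc2ΔN200 (red), orc2-I194E (blue) and WT (grey), where orc2-I194E at ALR2 has the highest value, 0.38.

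Set beside the S library labelled WT, the share of orc2ΔN200 lay between those of WT and orc2-I194E at 11 of the 17 stretches, 4 of the 7 higher in orc2ΔN200 and 7 of the 10 higher in orc2-I194E. This count and those below include the ORC2 stretch, where 0 bins passed the limit without the 3 ORC2 bins. The share of orc2-I194E was farther from WT than that of orc2ΔN200 at 15 of 17. The exceptions were the stretches at YNCG0008W on chromosome VII and UTP4 on chromosome IV, where orc2ΔN200 was below WT by -0.13 and -0.064 and orc2-I194E differed from it by -0.0076 and 0.057. Neither count is given for bins outside the stretches, which were picked for a gap between the mutants. Over the whole genome orc2-I194E also stood farther from WT, with an SD of 0.142 against 0.124 for orc2ΔN200. Nothing in these counts is thus called particular to the stretches. With its own G1 library as denominator, the difference between orc2ΔN200 and orc2-I194E had the same sign at all 17 stretches. The S-phase ratio that picked the stretches is part of this difference, and the G1 ratios over them lay between -0.099 and 0.10. The shared sign thus follows largely from the choice of stretches and is no separate check. The difference stayed at 0.1 or more in size over the whole stretch at 3 of the 7 and at 7 of the 10.

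**Figure D4:**
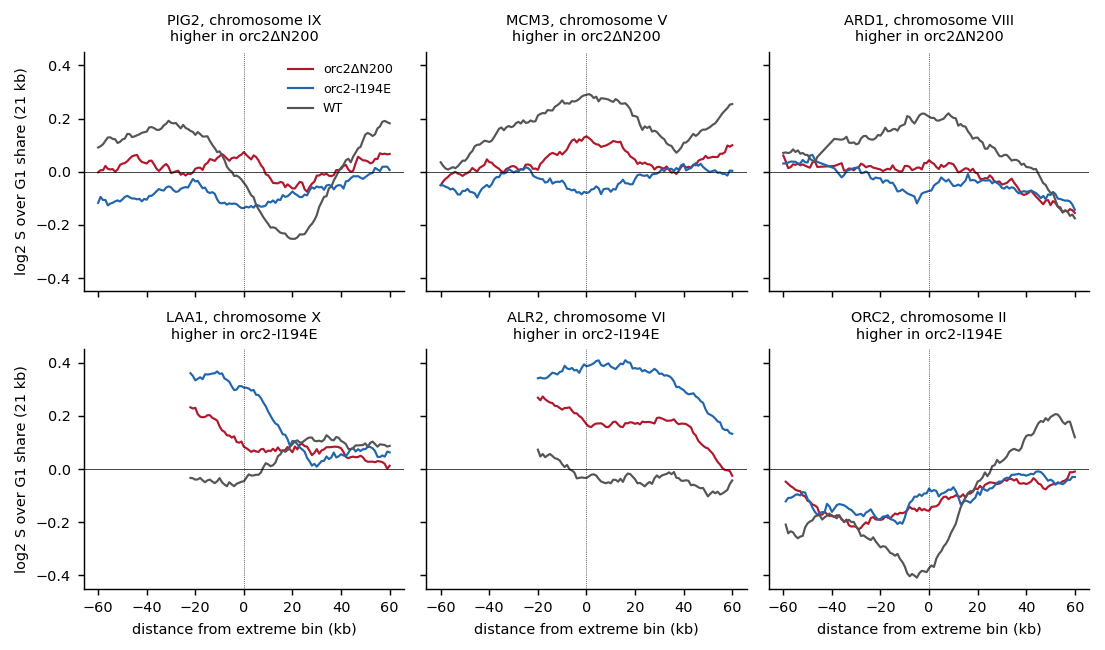
Log2 S over G1 share (21-kb running mean, y axis) against distance from the extreme bin in kb (x axis) around 6 stretches, for orc2ΔN200 (red), orc2-I194E (blue) and WT (grey). At the extreme bin of MCM3 and of ARD1 WT is the highest trace and orc2-I194E the lowest. At those of LAA1 and ALR2 orc2-I194E is the highest and WT the lowest. At ORC2, with the bins of the gene itself included, both mutants lie above WT.

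By whole chromosomes the libraries differed little. The log2 ratio of orc2ΔN200 over orc2-I194E lay between -0.025 and 0.055 on the 16 chromosomes, against -0.031 to 0.070 in the G1 pair. Chromosome IX had the highest value, with 3.61% of the orc2ΔN200 counts and 3.47% of the orc2-I194E counts (0.055, 0.043 to 0.067), and no difference of that size in G1 (0.00098). Chromosome VI had the lowest, with 74071 counts in orc2ΔN200 and 73623 in orc2-I194E (-0.025, -0.040 to -0.011), and the G1 pair there differed the other way by 0.055. Chromosome VI also stood highest over G1 in both mutants, at 0.16 in orc2ΔN200 and 0.24 in orc2-I194E, against 0.086 labelled WT.

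Chromosome ends and centromeres, which separate both mutants from the label WT, separated the mutants from each other by less. Within 30 kb of an end, 6.03% of orc2ΔN200 counts and 6.06% of orc2-I194E counts fell, a log2 ratio of -0.0083 (-0.018 to 0.0012). Within 20 kb of a centromere the shares were 5.65% and 5.61%, a log2 ratio of 0.0091 (-0.00072 to 0.019). Against the S library labelled WT the ends stood at 0.090 in orc2ΔN200 and 0.099 in orc2-I194E, and the centromeres at -0.12 and -0.13. The difference between the mutants was thus smaller than the distance of either from WT. It depended on the scaling: with each S share over its own G1 share it was -0.032 at ends and 0.026 at centromeres, and with shares of the whole library it was 0.0026 and 0.020. The G1 pair differed by 0.024 at ends and -0.017 at centromeres, more than the S-phase pair and in the opposite direction.

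Single ends and centromeres spread more widely, though none reached 0.1. Of 28 ends with at least 11 used bins, 13 were higher in orc2ΔN200 and 15 in orc2-I194E, with values between -0.090 at the left end of chromosome XV and 0.070 at the right end of chromosome IX. The counting interval excluded 0 at 3 of the first and 6 of the second. Among the 16 centromeres, 10 were higher in orc2ΔN200 and 6 in orc2-I194E, between -0.055 on chromosome VI and 0.076 on chromosome VIII. Here the interval excluded 0 at 4 and 2.

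In the outermost 10 kb the ratio was -0.028 (-0.050 to -0.0050), and between 30 and 60 kb from an end it was -0.017 (-0.025 to -0.0092). Between these 2 zones it was -0.00027 at 10 to 20 kb and -0.0072 at 20 to 30 kb. All 4 values were below 0, while the G1 pair had values above 0 in the same zones, of 0.028, 0.013, 0.030 and 0.031 in order away from the end.

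**Figure D5:**
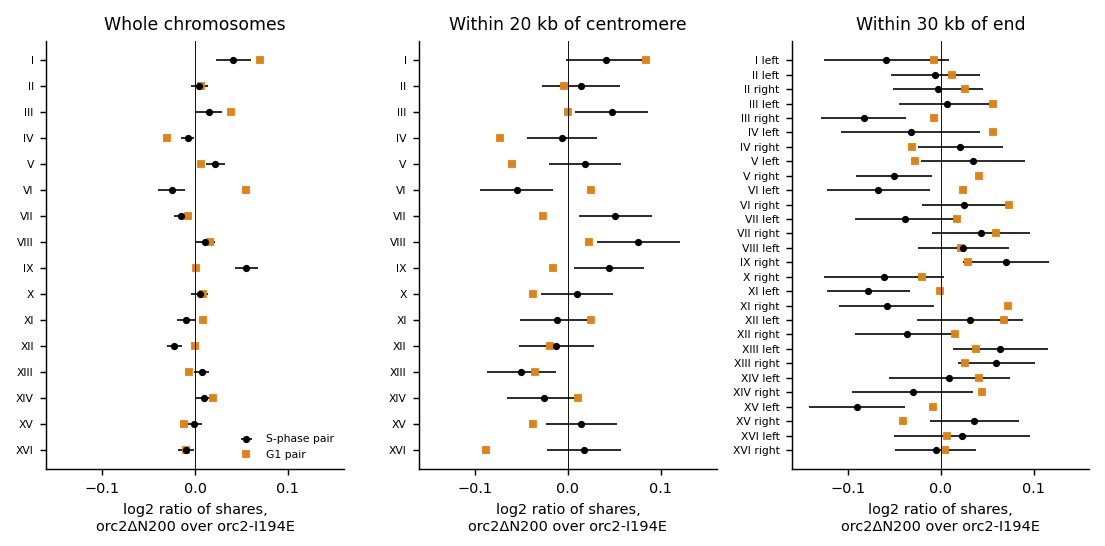
Log2 ratio of summed shares, orc2ΔN200 over orc2-I194E (x axes), for the 16 chromosomes, the 16 centromeres (within 20 kb) and 28 ends (within 30 kb), with the S-phase pair in black (95% intervals for counting error) and the G1 pair in orange. The S-phase points lie between -0.090 and 0.076.

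The ratio between the mutants was also read along the WT profile. Bins were put into 10 classes of equal size by the S over G1 value of the libraries labelled WT, which are not part of the mutant pair. In the lowest class the log2 ratio of orc2ΔN200 over orc2-I194E was -0.024 (-0.032 to -0.016), and in the highest 0.031 (0.024 to 0.038). The G1 pair differed there by -0.018 and 0.0086. In the highest class, S over G1 was 0.12 in orc2ΔN200 and 0.099 in orc2-I194E, against 0.22 labelled WT, and in the lowest it was -0.11 and -0.11, against -0.33. As the WT profile itself set the classes, its own values are extreme by the sorting and are not compared with those of the mutants. The mutant ratio, which the sorting did not use, was higher in the highest class than in the lowest, in G1 as well as in S.

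Sorted instead by the mean S over G1 of both mutants, the highest class had 11.6% of orc2ΔN200 counts and 11.8% of orc2-I194E counts, a log2 ratio of -0.021 (-0.028 to -0.014). S over G1 there was 0.22 in orc2ΔN200 and 0.26 in orc2-I194E, against 0.11 labelled WT. In the lowest class the ratio was -0.0010 (-0.0089 to 0.0068). These classes were set by the same S libraries, and S over G1 had a wider spread in orc2-I194E (SD 0.127) than in orc2ΔN200 (SD 0.113), so nothing is read from the order of the mutants here.

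Genes of the replication machinery were looked at as places on the map, since a bin count says nothing about their expression. Over 6098 genes with a value, 128 (2.1%) lay where the 21-kb ratio was 0.1 or more and 148 (2.43%) where it was -0.1 or less, with a median of 0.0020. Of 15 licensing genes (ORC and MCM subunits, CDC6, TAH11, MCM10), 1 was in the first group and 2 in the second, and the median was -0.0056. These were MCM3 (0.17), MCM5 (-0.12) and ORC2 (-0.12), and MCM5, another helicase subunit, sat in a run of under 10 kb where the G1 pair was also at -0.11. Of 14 firing factors and polymerases, DPB11 (-0.10), which bridges other firing factors, was the only one past the limit.

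None of 9 genes of timing and silencing (among them RIF1, FKH1 and SIR2) and none of 9 histone genes passed it, with medians of -0.015 and 0.012. Of 10 genes used in strain construction, ORC2 alone did. No test was made of these lists, and nothing is called particular to them.

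Single bins with a log2 ratio of at least 0.5 in size numbered 25 of 11325, 11 (0.0971%) higher in orc2ΔN200 and 14 (0.124%) in orc2-I194E, against 0.0706% and 0.053% in the G1 pair. ORC2 accounted for 2 of them and the bin next to LEU2 on chromosome III for 1, with 133 counts in orc2ΔN200 and 185 in orc2-I194E. Apart from these, the bin in TOD6 on chromosome II, with 372 counts in orc2ΔN200 and 231 in orc2-I194E, had a log2 ratio of 0.65. In USO1 on chromosome IV there were 173 and 103 counts (0.71). The CYC3 bin on chromosome I, with 233 and 159, differed in G1 as well, by 0.40, and TOD6 and USO1 were at -0.27 and 0.0063 there. These genes were chosen after their values were seen.

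With the S library labelled WT in place of that labelled orc2-I194E, the picture was a different one. The SD of the 21-kb ratio was then 0.124, 80 stretches were higher in orc2ΔN200 and 78 in the library labelled WT, and the ends and centromeres stood at 0.090 and -0.12. Whether the S labels of WT and orc2-I194E are exchanged was not tested beyond the counts at ORC2 and LEU2, and the closeness described here holds for the libraries as labelled.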

How the data were processed

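Whole-genome DNA was sequenced on a DNBseq instrument, per the labels' protocols. The deposited files hold counts per 1-kb bin, read as whole-number counts from the authors' column of that kind. Bowtie2 2.5.3, Picard 2.27.5, SAMtools 1.18, bedtools 2.31.0, R 4.3.0 and the build sacCer3 are named per the submitters' processing notes. The role of each tool, the handling of duplicates, the read filters and the object counted (read or fragment) are not given in the sources used here.

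Library totals ran between 3235720 and 3376203 counts over the 6 libraries, and 9.25% of the orc2ΔN200 S library and 9.88% of the orc2-I194E S library were mitochondrial. Bins with at least 50 counts in both S libraries were kept, shares were taken over them, and log2 ratios were averaged over 21 bins of which at least 11 were used. Intervals are 95% exact (Clopper-Pearson) intervals for 2 counts. PCR reads are not independent molecules, so intervals cover counting error only. With 1 library a group no test was made. Values were computed with pandas 2.3.3 and numpy 2.4.6 under Python 3.11.15, intervals with SciPy 1.17.1 and figures with matplotlib 3.10.9, and the steps were tested on simulated data. Gene names and positions are from a RefSeq gene table of assembly R64.

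Named genes were those at the 8 stretches of largest size in each direction, with up to 6 genes wholly inside each, the 5 highest hills of each S library, list members past 0.1, ORC2 and LEU2. Other genes are said to be chosen later where they appear. The members, lists and rules were chosen with earlier results of these data known.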

Additional observations from a re-analysis of the deposited data

How the results depend on the processing

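Of the alternative values of the main results, 76 stayed within their limits and 35 did not, and the cause was not tested. For ends, centromeres and copy levels the limits were the counting interval of the main value. For counts, SDs and correlations they were a fixed ratio to the main value. That ratio was wide: a correlation of 0.668 with the S library labelled WT, against 0.935, stayed within it. The 76 thus include sizeable changes. No paired analysis was possible because each group was 1 library, and for the same reason no library could be left out. The correction for GC content was not run, as no genome was used. Centring on the median, a filter on G1 counts and counts summed over 21 kb moved no main result beyond its limits. Shares of whole-file totals gave 12 stretches and 356 kb higher in orc2ΔN200, and log2 ratios of 0.0026 at ends and 0.020 at centromeres. Without a minimum count, 81 single bins passed 0.5. An 11-kb mean gave 12 stretches (455 kb) higher in orc2ΔN200 and 16 (508 kb) higher in orc2-I194E, 233 shared hills, 1 timing and silencing gene higher in orc2-I194E, and 264 and 244 of all genes. With each S share over its own G1 share there were 13 stretches (433 kb) higher in orc2ΔN200 and 508 kb higher in orc2-I194E, -0.032 at ends, 0.026 at centromeres, 5 chromosomes higher in orc2ΔN200, 15 shared hills (of 57 and 60) and 141 single bins. A limit of 0.15 left 1 stretch in each direction (35 and 34 kb), and a prominence of 0.2 left 40 shared hills. Against the library median, the first-codon bin of ORC2 in orc2-I194E S stood at 1.79.

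With the S library labelled WT in place of that labelled orc2-I194E, the SD was 0.124, with 80 stretches (2558 kb) higher in orc2ΔN200 and 78 (2553 kb) lower, 0.090 at ends, -0.12 at centromeres and 80 single bins. The extreme bin then had the opposite sign at 13 of the 17 stretches: MCM3 -0.15, CTR86 -0.099, FUN30 -0.081, ARD1 -0.15, YNCK0006C -0.024, YIR018C-A -0.011, LAA1 0.14, RAD3 0.16, ALR2 0.18, ATG23 0.088, RNY1 0.034, MSH3 0.18 and ORC2 0.098. Over own G1, the extreme bin stayed past the limit at 5 of 7 stretches higher in orc2ΔN200 and 8 of 10 higher in orc2-I194E, and the sum over the whole stretch at 3 and 7. Leaving out the ORC2 and LEU2 bins, or placing chromosome ends at the last annotated gene (-0.010 within 30 kb), both chosen after seeing the data, moved none of the main results recomputed for them beyond its limits. At this depth a 21-kb difference near or below the counting SD of 0.0283 could not be told from counting error. That SD is no limit of detection, as the G1 pair itself spread by an SD of 0.0410.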
